A study of Homo sapiens with 6 samples.

Results

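The genes that encode the linker histones and the replication-dependent core histones were followed in U2OS, an established human osteosarcoma cell line, after silencing of squalene epoxidase (SQLE), an enzyme of cholesterol synthesis. A gene was taken as a member when its current symbol starts with H1-, H2AC, H2BC, H3C or H4C and ends in a number, which gave 71 of the 19937 genes in the count table. They comprised 10 linker histone genes (H1), 15 H2A, 18 H2B, 13 H3 and 15 H4 genes. Both groups were U2OS cells infected with a lentivirus built on the pGIPZ plasmid and selected with puromycin as stable populations, so that the vector and the drug were common to both. The shSQLE cells (3 libraries) expressed a short hairpin RNA against SQLE, and the shControl cells (3 libraries) expressed a scrambled hairpin. Nothing in the labels tells separate cultures from repeat libraries of 1 culture, so p-values measure the spread between these libraries, which may be technical. Poly(A) RNA was read as pairs of 151 bp.

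Core histones H2A, H2B, H3 and H4 form the protein spool of the nucleosome, and linker histone H1 binds where DNA enters and leaves it. Replication-dependent histone genes are transcribed in S phase, when new DNA must be packaged, and most lie in clusters. Their mRNAs usually end not in a poly(A) tail but in a short stem-loop that is bound by the stem-loop binding protein SLBP, and a library made from poly(A) RNA is not designed to hold them. H1-10, a linker histone, is known to be polyadenylated.

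The stem-loops are shown because mRNAs that end in them carry no poly(A) tail. GENCODE v44 transcripts were searched for the histone stem-loop, and it was present in 67 members and absent from 4, H1-10 among them. The core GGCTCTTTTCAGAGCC was found in 38 members, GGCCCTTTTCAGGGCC in 10, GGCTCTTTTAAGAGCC in 9 and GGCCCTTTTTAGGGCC in 4, and 6 other cores were found in 1 member each. The 3′ ends of 6 genes whose values are given below follow, read 5′ to 3′ on the sense strand, with the stem-loop in capitals.

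H1-2: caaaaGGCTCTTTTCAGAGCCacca

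H2BC12: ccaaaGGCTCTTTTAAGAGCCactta

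H2BC11: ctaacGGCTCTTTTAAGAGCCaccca

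H2AC6: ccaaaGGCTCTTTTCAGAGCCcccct

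H2BC9: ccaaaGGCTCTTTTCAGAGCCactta

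H3C6: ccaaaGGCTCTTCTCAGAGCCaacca

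Of the 67 members with a stem-loop, 49 had no other annotated 3′ end, H1-2, H2BC12 and H2BC9 among them. The other 18 had a transcript that ends elsewhere, as H2AC6, H2BC11 and H3C6 did beside a stem-loop end. For H2BC21, 1 of the 18, the only annotated transcript runs 1729 bases past the stem-loop.

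The promoters of the 4 members with the smallest adjusted p below are shown next, because members of a family share elements there. Each line holds the 150 bases before the RefSeq start (GRCh38.p14), with 4 motifs in capitals, on either strand. The motifs were the H1 box (AAACACA), the CCAAT box (CCAAT, or ATTGG on the other strand), the octamer bound by POU2F1 (ATTTGCAT, or ATGCAAAT on the other strand) and the TATA box (TATAAA). The different motifs do not overlap in these 4 promoters.

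H1-2, chr6:26056471-26056620, - strand: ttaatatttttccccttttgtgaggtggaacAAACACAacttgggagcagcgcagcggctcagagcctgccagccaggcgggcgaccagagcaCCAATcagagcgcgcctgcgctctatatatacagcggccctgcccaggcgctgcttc

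H2BC12, chr6:27146859-27147008, - strand: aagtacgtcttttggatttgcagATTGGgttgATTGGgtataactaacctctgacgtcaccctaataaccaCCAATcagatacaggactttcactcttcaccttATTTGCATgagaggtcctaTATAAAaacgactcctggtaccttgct

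H2BC11, chr6:27132796-27132945, - strand: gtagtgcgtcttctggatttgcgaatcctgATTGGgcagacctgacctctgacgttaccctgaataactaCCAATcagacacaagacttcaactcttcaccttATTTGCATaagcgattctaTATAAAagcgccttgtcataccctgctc

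H2AC6, chr6:26124022-26124171, + strand: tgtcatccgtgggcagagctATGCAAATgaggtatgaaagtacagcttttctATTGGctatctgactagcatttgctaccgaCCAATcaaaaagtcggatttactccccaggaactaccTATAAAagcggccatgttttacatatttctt

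The search was repeated in the 250 bases before the start of every gene in the RefSeq table, in which 65 of the 71 members were found. The H1 box was present in 7 of 9 linker histone promoters and in no core histone promoter, against 4.95% of all 27305 promoters. The octamer was present in 14 of 18 H2B and 11 of 14 H2A promoters, 1 of 11 H3 promoters and no H1 or H4 promoter, against 1.66% of all. A CCAAT box was found in every H2A, H2B and H3 promoter searched, in 8 of 9 H1 promoters and in 3 of 13 H4 promoters, against 33.0% of all. TATAAA was found in 41 of the 65, against 11.1% of all. Paired H2A and H2B genes (described below) start 170 to 251 bp apart, so their windows cover much the same DNA. A match there, such as the octamer, can count for both genes, and these families were not counted independently. Within 150 bases of the start, H2AC11 and H2AC20 held no octamer while their partners H2BC11 and H2BC21 did. These matches describe the letters in the windows and are not evidence of binding.

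On hg38, 55 members lie on chromosome 6 between 25723397 and 27893891, 11 on chromosome 1, and 2 each on chromosomes 3 and 12. Members resemble each other, but 54 of the 71 shared no 151-base window with another annotated transcript. Windows were taken from a single annotated transcript of each member, so its other exons were not searched. Of the members tested below, H2BC4 shared every window with a transcript of the gene ENSG00000291336 and overlaps HFE on the opposite strand. H1-10, H2BC26 and H4C8 shared 7.1%, 9.5% and 12.7% of their windows. The counts of these genes, H2BC4 included, are less certain. The strand setting of the counting and its treatment of reads with several matches are not given in the sources used here.

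Totals on genes ranged from 12212378 to 14393292 counts per library. SQLE was at 1349, 1867 and 1924 normalized counts in shControl and at 229, 204 and 219 in shSQLE, a log2 fold change of -2.98 ± 0.17 (SE, adjusted p = 0.000299, edgeR). Normalized counts are counts scaled to the mean of the TMM-adjusted library sizes. shControl replicate 1 stood apart: over all genes the chi-square per degree of freedom was 51.3 and 60.8 against its own group, more than the 25.4 against shSQLE replicate 2, while shControl replicates 2 and 3 differed by 2.76. For the histone genes and sums, values without it are given where they move by over 1.5 times or change the call. The fit without it called 33.9% of all genes, so that a pass in that fit is common. Of the markers of the osteoblast lineage, RUNX2 (146 to 245 counts), COL1A1 (103 to 184) and SPARC (5000 to 7017) were present in every library, SP7 and IBSP had no count, and ALPL (0 to 2) and COL1A2 (0 to 6) were nearly absent. The leukocyte markers PTPRC and CD3E had no count and CD14 had 1 to 6. The endothelial markers VWF and CDH5 had at most 2 and 1 counts and PECAM1 had 2 to 15, lower in shSQLE without overlap of the groups (log2 fold change -1.67, adjusted p = 0.0933). Of the epithelial markers KRT8 (5148 to 7503), KRT18 (7205 to 11517) and EPCAM (46 to 76) were present while CDH1 and KRT19 had at most 2 and 3.

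Detection was narrow. No count was found in any library for 9 members (H1-6, H1-7, H1-8, H2AC1, H2BC1, H2BC3, H3C3, H3C4 and H4C6), and 23 members, these 9 included, had at most 3 counts in every library. Only 34 members had a count in every library, 22 had over 3 in every library and 15 had over 10. The filter on low counts left 20 members to be tested, 3 H1, 4 H2A, 9 H2B, 3 H3 and 1 H4, and the 51 left out came to 109 to 171 counts per library in sum. Whether a gene that was not detected is silent or makes mRNA without a poly(A) tail cannot be told apart here. Most of the windows described above were shared with another annotated transcript in 12 members. Of the 9 without any count, H3C4 shared 95.5% of its windows and the others shared none. Whether reads with several matches were lost from these counts was not tested.

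H1-10 was above every member with a stem-loop in counts, and it held 18.5% of the members' counts in shControl and 16.1% in shSQLE. Per kilobase of exon the order differed, and the shControl means were 1708 normalized counts for H2BC12, 1256 for H1-10, 379 for H1-2 and 130 for H2AC6. H2BC12, for which no 3′ end other than the stem-loop is annotated, thus lay above the polyadenylated H1-10.

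In the comparison of shSQLE with shControl, 1 of the 20 members tested passed an adjusted p of 0.05, where 3.21% of the 12450 genes tested passed (0.369% higher and 2.84% lower), so that 1 call is near the background. It was H1-2, which was higher in shSQLE. No member was called lower. The 20 log2 fold changes ran from -1.17 to 1.23, 14 above 0 and 6 below, with a median of 0.32 against -0.01 for all genes tested. The groups did not overlap for 7 members that were higher and 2 that were lower in shSQLE, where 10% and 12.1% of all genes did so. These counts describe the members that passed the filter and not all members. H2BC26 was over the filter's limit of 0.737 CPM (counts per 1000000 library counts) in shControl only, H2BC9, H3C8 and H3C10 in every shSQLE library but not in every shControl library, and H3C6 in every shControl library but not in every shSQLE library.

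**Figure D1:**
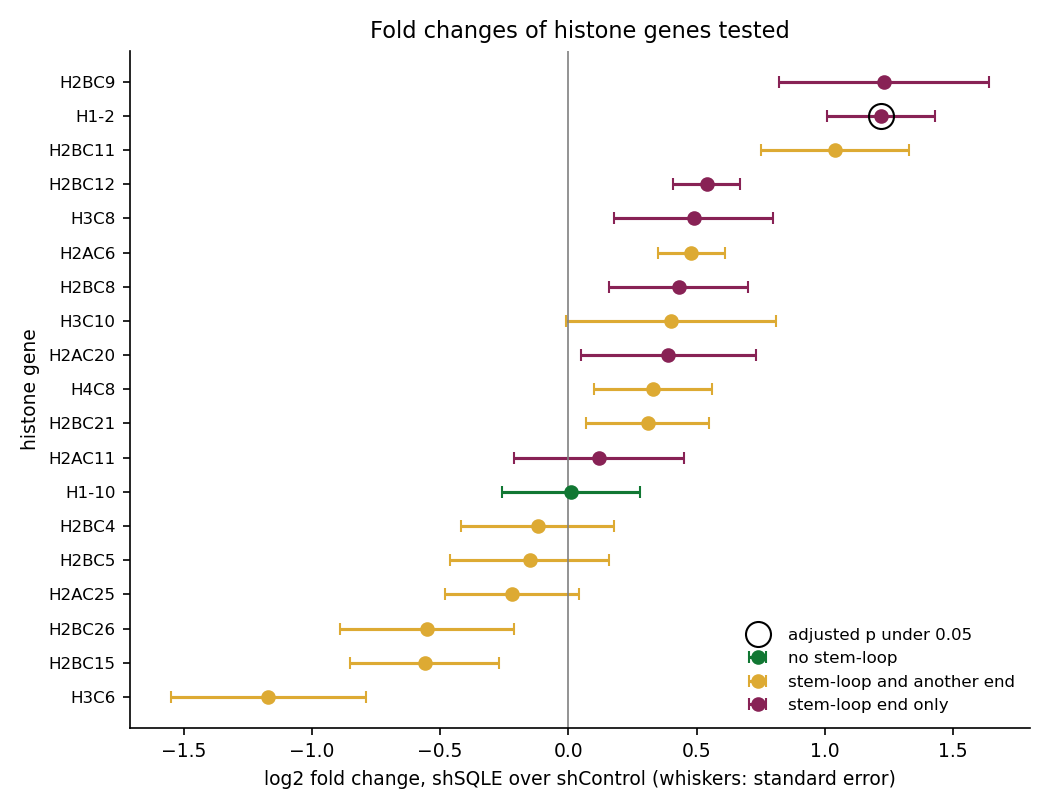
Log2 fold change of shSQLE over shControl (horizontal axis) for histone genes tested, with whiskers for the standard error and colours for the annotated 3′ end. H1-2 at 1.22 is the gene ringed for an adjusted p under 0.05, and H3C6 at -1.17 and H2BC9 at 1.23 are the ends of the range.

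Among the linker histones, H1-2 (ENSG00000187837, chromosome 6, 26055740 to 26056470, - strand), one of the somatic H1 subtypes, showed the called difference. It was at 361, 248 and 222 normalized counts in shControl and at 663, 738 and 529 in shSQLE. Every shSQLE library lay above every shControl library, and shControl replicate 1 was the nearest of its group to shSQLE. Means of 277 ± 74.3 and 644 ± 106 (SD, n = 3 each) gave a 2.33-fold difference, or 1.22 ± 0.21 (SE) on the log2 scale (adjusted p = 0.0235, edgeR). In bulk RNA, a change in the share of cells that express a gene, such as cells in S phase, and a change in RNA per cell cannot be told apart.

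The H1-2 call did not hold in most fits with 1 library fewer. Without shControl replicate 1 the log2 fold change was 1.45 (adjusted p = 1.29e-05, in a fit that called 33.9% of all genes). Without any 1 of the other 5 libraries it stayed between 1.09 and 1.36, but the adjusted p was 0.103 without shControl replicate 2, 0.0688 without shControl replicate 3, and 0.122, 0.117 and 0.0733 without shSQLE replicates 1, 2 and 3, in fits that called 109 to 211 genes in place of 400. In DESeq2 the adjusted p was 1.06e-05. That tool called 3 members, H1-2, H2BC12 and H2BC11, where it called 5.01% of all genes.

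H1-10 was at 2808, 1533 and 1369 in shControl and at 2065, 2080 and 1586 in shSQLE. Its groups overlapped because shControl replicate 1 was the highest of all, and the log2 fold change of 0.01 ± 0.27 (adjusted p = 0.996) became 0.40 without that library (adjusted p = 0.0182). The other 7 linker histone genes were not tested. H1-4 and H1-5, further somatic subtypes, had sums of 29 and 18 counts over the 6 libraries.

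Of the H2A genes, H2AC6 (ENSG00000180573, chromosome 6, 26124145 to 26139116, + strand) had the highest counts. It was at 232, 220 and 200 normalized counts in shControl and at 327, 300 and 282 in shSQLE. The libraries of each group lay close together and the groups did not overlap. The means were 217 ± 16.1 and 303 ± 22.9 (log2 fold change 0.48 ± 0.13, adjusted p = 0.12), and without shControl replicate 1 the adjusted p was 0.0062. H2AC25 (ENSG00000181218, chromosome 1, 228434777 to 228457873, - strand) was at 301, 164 and 182 in shControl and at 178, 223 and 153 in shSQLE. The groups overlapped, and its log2 fold change of -0.22 ± 0.26 (adjusted p = 0.784) turned to 0.10 without shControl replicate 1. H2AC20 and H2AC11 had log2 fold changes of 0.39 and 0.12 with overlapping groups. Without shControl replicate 1 they were at 0.79 (adjusted p = 0.0561) and 0.34.

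H2B genes made up 9 of the 20 tested. H2BC12 (ENSG00000197903, chromosome 6, 27146361 to 27146855, - strand) had the highest level of all stem-loop members, with 972, 747 and 817 normalized counts in shControl and 1228, 1288 and 1168 in shSQLE. All shSQLE values were above all shControl values, and again shControl replicate 1 was the nearest to the other group. The means were 845 ± 115 and 1228 ± 60.3, a 1.45-fold difference (log2 fold change 0.54 ± 0.13), which did not pass in edgeR (adjusted p = 0.075). It passed in DESeq2 (adjusted p = 0.00942) and without shControl replicate 1 (adjusted p = 0.000256, where 33.9% of all genes passed).

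H2BC11 (ENSG00000124635, chromosome 6, 27125897 to 27132795, - strand) was at 45.0, 46.1 and 24.5 normalized counts in shControl and at 64.6, 99.6 and 74.0 in shSQLE. The groups did not overlap but spread widely within themselves. Its log2 fold change was 1.04 ± 0.29 (adjusted p = 0.119), with an adjusted p of 0.0339 in DESeq2 and 0.00801 without shControl replicate 1. H2BC9 (ENSG00000275713, chromosome 6, 26251614 to 26252075, + strand), at low counts, was at 4.62, 5.43 and 10.8 in shControl and at 15.7, 12.8 and 21.6 in shSQLE. Its log2 fold change of 1.23 ± 0.41 was the highest of the 20 (adjusted p = 0.203). H2BC8 and H2BC21 had log2 fold changes of 0.43 and 0.31, and that of H2BC21 was 0.53 without shControl replicate 1.

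The remaining H2B genes had estimates below 0, and none passed the test. H2BC26 was at 12.7, 11.8 and 10.8 normalized counts in shControl and at 5.88, 9.86 and 8.22 in shSQLE (log2 fold change -0.55 ± 0.34, adjusted p = 0.546). H2BC15 was at 39.3, 51.5 and 25.5 in shControl and at 27.4, 24.6 and 26.7 in shSQLE (log2 fold change -0.56 ± 0.29, adjusted p = 0.444). The groups overlapped for H2BC15 and did not for H2BC26. H2BC5 and H2BC4 had log2 fold changes of -0.15 and -0.12. Without shControl replicate 1 that of H2BC5 turned to 0.04 and that of H2BC4 was -0.29.

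**Figure D2:**
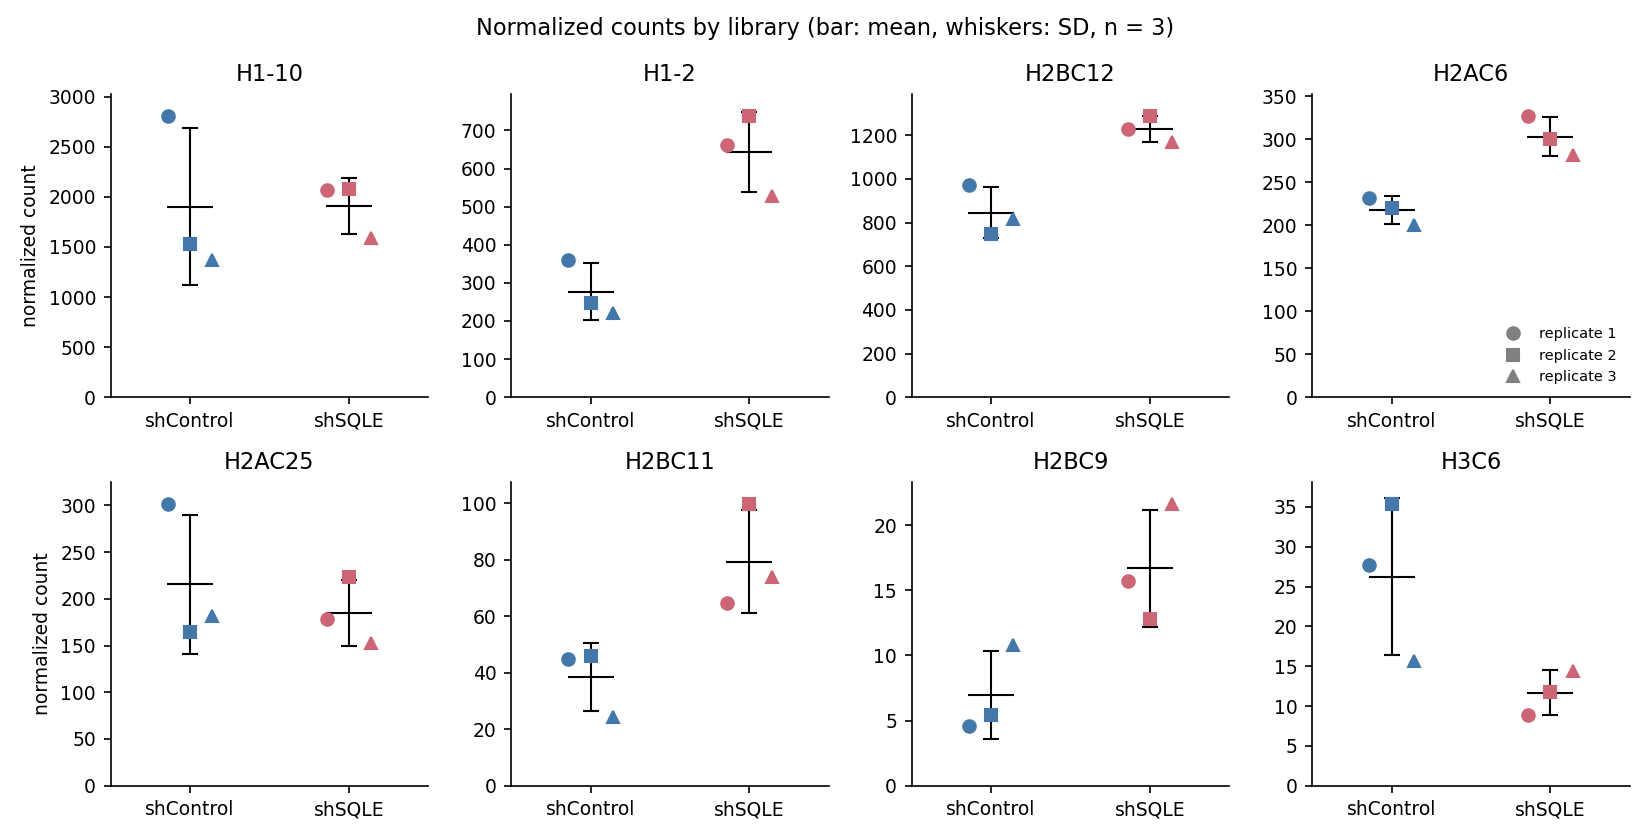
Normalized counts (vertical axes, each from 0) of 8 histone genes in the shControl and shSQLE libraries, with a marker for each replicate, a bar for the mean and whiskers for the SD (n = 3 each). H1-10 and H2AC25 are the genes whose groups overlap, H3C6 is lower in shSQLE, and in the other 5 every shSQLE library is above every shControl library.

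Few counts came from the H3 and H4 genes. H3C6 (ENSG00000274750, chromosome 6, 26224199 to 26227473, + strand) was at 27.7, 35.3 and 15.7 normalized counts in shControl and at 8.81, 11.8 and 14.4 in shSQLE. The lowest shControl library was just above the highest shSQLE library. Its log2 fold change was -1.17 ± 0.38 (adjusted p = 0.189), and the adjusted p was 0.0484 without shControl replicate 1. H3C8 had means of 11.9 ± 3.37 and 16.6 ± 1.16 (log2 fold change 0.49 ± 0.31, adjusted p = 0.558), and H3C10 had a log2 fold change of 0.40. H4C8, the H4 gene tested, had means of 34.7 ± 5.2 and 43.8 ± 7.41 with overlapping groups (log2 fold change 0.33 ± 0.23, adjusted p = 0.6, and 0.22 without shControl replicate 1). H4C9, the H4 gene with the next highest counts, had raw counts of 14, 4 and 5 in shControl and 5, 8 and 10 in shSQLE and was not tested.

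Summed over all 71 members, the level was 866, 701 and 680 CPM in shControl and 906, 928 and 809 in shSQLE. The groups overlapped, since shControl replicate 1 was above shSQLE replicate 3. The means of 749 ± 102 and 881 ± 63.3 gave a log2 ratio of 0.23, or 0.35 without shControl replicate 1. Most of this sum came from members without a stem-loop. The 67 stem-loop members came to 179, 137 and 137 CPM in shControl and to 217, 236 and 197 in shSQLE, without overlap and with a log2 ratio of 0.52 (0.66 without shControl replicate 1). No p is given for sums, because the members were chosen with results of these data known.

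H1-2 and H2BC12 held 60.4% of the stem-loop members' counts and most of their difference. Together they were at 98.9, 73.7 and 77.0 CPM in shControl and at 140, 150 and 126 in shSQLE (log2 ratio 0.74). The other 65 stem-loop members came to 80.1, 63.1 and 60.4 CPM in shControl and to 76.4, 85.7 and 70.9 in shSQLE, with overlapping groups and a log2 ratio of 0.19 (0.33 without shControl replicate 1). The stem-loop sum was thus chiefly a sum of a pair of genes.

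**Figure D3:**
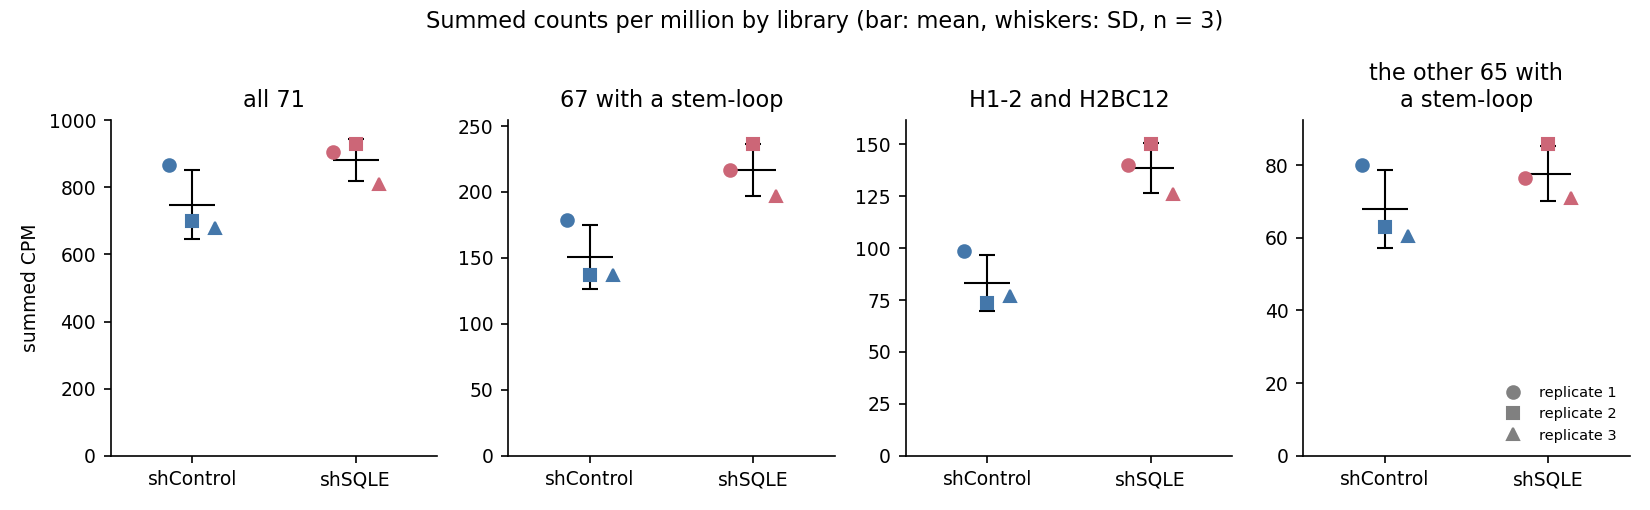
Summed CPM (vertical axes, each from 0) by library for all 71 members, the 67 members with a stem-loop, H1-2 with H2BC12, and the other 65 with a stem-loop, with a marker for each replicate, a bar for the mean and whiskers for the SD (n = 3 each). The groups are apart for the stem-loop sum and the pair of H1-2 and H2BC12, and they overlap for all 71 and for the other 65.

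By family, the H2B genes came to 81.4 ± 10.2 CPM in shControl and 114 ± 7.05 in shSQLE without overlap (log2 ratio 0.49), and without H2BC12 the log2 ratio was 0.31. The log2 ratios were 0.20 for the H1 genes and 0.20 for the H2A genes, both with overlapping groups, and 0.32 and 0.39 without shControl replicate 1. The H3 sum was slightly lower in shSQLE, with 4.41 ± 0.31 and 3.87 ± 0.0196 CPM (log2 ratio -0.19). It rests on 51 to 61 raw counts per library, so the small SD in shSQLE is not read as a tight group. H3C6 held 24, 39 and 16 of the 55, 61 and 61 raw H3 counts in shControl. In shSQLE it held 9, 12 and 14 of 53, 53 and 51. H3C8 and H3C10, the other H3 genes tested, had log2 fold changes above 0 (0.49 and 0.40), and neither was called. Both passed the filter with more shSQLE than shControl libraries over its limit. The remaining H3 genes were not tested, so no conclusion is drawn about the family. The H4 genes were at 5.66 ± 0.438 and 5.85 ± 1.18 CPM (log2 ratio 0.05, and 0.09 without shControl replicate 1). By 3′ end, the 49 members with a stem-loop end only had a log2 ratio of 0.70. It was 0.43 with overlapping groups once H1-2 and H2BC12 were left out. The 18 with a transcript that ends elsewhere had a log2 ratio of 0.13 with overlapping groups (0.26 without shControl replicate 1).

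Many H2A and H2B genes are transcribed away from each other from a shared promoter region, and 12 such pairs were found, with 170 to 251 bp between their starts. The pairs were uneven. Per kilobase of exon, as the mean normalized count of the 6 libraries, H2B was the higher of the pair in 6 and H2A in 5, and the pair of H2AC1 and H2BC1 had no count. By counts, which are not scaled by length, H2B was the higher in 8 and H2A in 3, and the exon length includes the alternative ends. The widest gap was at H2BC12, at 2094 per kilobase against 4.79 for its partner H2AC12. H2AC6 was at 156 against 6.95 for H2BC4, and H2AC25 at 108 against 1.97 for H2BC26. H2AC11 and H2BC11 were nearly level per kilobase, at 57.9 and 56.4, but by counts H2BC11 was the higher (354 against 170). Both genes were tested in 4 pairs.

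Genes that act with histones were read from the same fit in 4 lists, and none of their genes passed an adjusted p of 0.05. Of 23 factors that transcribe histone genes or process their mRNA, 15 were above 0 and 8 below, with a median log2 fold change of 0.04 (-0.07 without shControl replicate 1), and 2 passed an unadjusted p of 0.05, where 14.7% of all genes did. SLBP was at 0.03 ± 0.12 (adjusted p = 0.955) and NPAT, the coactivator of histone genes in S phase, at 0.04 ± 0.28 (adjusted p = 0.974). The smallest p belonged to NCBP2, a subunit of the cap-binding complex, at 0.31 (adjusted p = 0.232), UPF1, a helicase that takes part in histone mRNA decay, at 0.26 (adjusted p = 0.334), and TUT7, a terminal uridylyltransferase, at -0.41 (adjusted p = 0.405).

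Of the replication-independent core histone variants, whose mRNAs are polyadenylated in the main, 9 of 14 in the table were tested, and all 9 were above 0, with a median of 0.19. CENPA, the centromeric H3, was at 0.39 (adjusted p = 0.112), H2AZ1 at 0.38 (adjusted p = 0.124) and H3-3B at 0.19 (adjusted p = 0.44). An unadjusted p of 0.05 was passed by 2 of the 9, where 14.7% of all genes passed. Among 22 histone chaperones and supply factors, 19 were above 0 with a median of 0.16, against -0.01 for all genes tested. An unadjusted p of 0.05 was passed by 3, near the 14.7% of all genes. NASP, a chaperone of H3-H4 and of linker histones, was at 0.40 (adjusted p = 0.0721), HJURP, the chaperone of CENPA, at 0.36 (adjusted p = 0.116), and SSRP1, a subunit of FACT, at 0.37 (adjusted p = 0.18).

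Among 30 S phase and replication genes, 27 were above 0 and 3 below, with a median of 0.13 (0.07 without shControl replicate 1). An unadjusted p of 0.05 was passed by 4 higher and 1 lower, near the 14.7% of all genes. CCNE1, the cyclin of entry into S phase, was at -0.56 (adjusted p = 0.0848), TYMS, which makes thymidylate, at 0.30 (adjusted p = 0.172), and MCM2, a subunit of the replicative helicase, at 0.35 (adjusted p = 0.18). Without shControl replicate 1, where 33.9% of all genes were called, the calls higher and lower were 7 and 4 in the factors, 5 and 0 in the variants, 8 and 2 in the chaperones, and 8 and 3 in the S phase genes. The part of these genes in the values of the histone genes was not tested.

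The members tested differ from the table as a whole in make-up. Their transcripts had a median GC content of 58.0% and a median length of 494 bases, against 48.4% and 3433 bases over all genes tested. With offsets for GC content and length in each library, an analysis chosen after seeing the data, H1-2 was at 1.14 (adjusted p = 2.53e-05), H2BC11 at 0.94 (adjusted p = 0.0333) and H2BC12 at 0.42 (adjusted p = 0.0964), in a fit that called 17.5% of all genes.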

How the data were processed

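Per the labels' processing notes, the authors used fastp 0.20.0, STAR 2.7.9a with hg38, and featureCounts 2.0, and they deposited counts per gene without normalization. Symbols came from a table of gene names, and positions, lengths and 3′ ends from GENCODE v44. Counts were filtered with filterByExpr (minimum count 10) and tested with edgeR 4.0.16 (R 4.3.3): TMM scaling, the quasi-likelihood test of shSQLE against shControl with no covariate, and Benjamini-Hochberg adjustment over 12450 genes at 0.05. Sums are CPM at the effective library size. A gene at 3 counts or fewer was read as near the floor. The test was checked on simulated data drawn with a common dispersion for all genes and no library set apart. That check does not cover the spread of shControl replicate 1, and its outcome is not reported here. Genes given in full were those called, the 2 highest per family, the 3 highest and 3 lowest log2 fold changes, and H1-10, except that some genes this rule names are not reported here. Members and lists were chosen with earlier results of these data known. The alternatives were DESeq2 1.42.0, other size factors and filters, a replicate block, leaving out each library, other thresholds, and GC content and length offsets (mgcv 1.9.3).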

Additional observations from a re-analysis of the deposited data

How the results depend on the processing

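The number of histone genes called was 1 by edgeR. It was 3 of 62 fitted by DESeq2 (H1-2, H2BC11 and H2BC12, where 5.01% of all genes were called). With GC content and length offsets it was 2 of 20 tested, where 17.5% of all genes were called. At an adjusted p under 0.1 it was 2. The share of all genes at that threshold is not given, so this count cannot be set against the background. When each library was left out in turn it was 0 to 7. The 7, of 23 tested, came without shControl replicate 1, where 33.9% of all genes were called. Without any 1 of the other 5 libraries it was 0. The log2 ratio of the summed CPM, 0.23, was 0.52 over members with a stem-loop. The log2 fold change of H1-10, 0.01, was -0.02 with library size only and ran from -0.17 to 0.40 when each library was left out, and that of H2AC25 ran from -0.38 to 0.10. With library size only, the median was 0.12 for the chaperones and 0.09 for the S phase genes. Leaving out each library gave medians of 0.12 to 0.17 for the chaperones, 0.07 to 0.15 for the S phase genes, -0.07 to 0.09 for the processing factors and 0.16 to 0.27 for the variants. The causes were not tested. Same-numbered libraries did not deviate together (r = 0.138, -0.433 and 0.543), so the numbers were not read as pairs. With the replicate block 1 histone gene and 396 genes in all were called (400 without it), and H1-2 was at 1.23 (adjusted p = 0.0062). H2BC9, H2BC26, H3C6, H3C8 and H3C10 gave no value with at least 10 counts in every library. The 51 genes left out of the test had few counts. With no filter 62 histone genes were fitted and 1 was called, where 406 of all 15995 genes fitted were called. With 3 libraries against 3, an exact permutation test of 1 gene cannot go below p = 0.1.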
